A study of Mus musculus with 6 samples.

Results

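The intercalated disc joins cardiac myocytes end to end, and 10 of its genes are described here in whole hearts of mice with a resistant or a sensitive Na/K-ATPase α1. They were chosen by name from the 54532 genes of the count table, and comprise connexins (Gja1, Gja5 and Gjc1), adherens junction genes (Cdh2 and Ctnna3) and desmosomal genes (Dsp, Dsg2, Dsc2, Pkp2 and Jup). All 10 were found and all were among the 14866 genes tested. The hearts came from 3-month-old male mice on a C57BL/6 background. In 3 α1r/rα2s/s mice (368, 369 and 370) the α1 isoform was the rodent form, which binds cardiotonic steroids (CTS) weakly. In 3 α1s/sα2s/s mice (379, 380 and 381) substitutions gave α1 a high affinity for CTS. Both genotypes carried the CTS-sensitive α2, the labels name no treatment, and the knock-in allele was present in every cell of the animal rather than in myocytes alone. The comparison asks whether α1 affinity for CTS changed the transcripts of the heart.

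The disc holds 3 kinds of junction. Gap junctions are channels built of connexins that let current pass from myocyte to myocyte. Adherens junctions tie the actin of neighbouring cells together through cadherins and catenins. Desmosomes tie their intermediate filaments together through desmogleins and desmocollins, which plakoglobin (Jup), plakophilins and desmoplakin (Dsp) link to desmin. Inherited defects of desmosomal genes are known for arrhythmogenic cardiomyopathy.

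Each heart had between 19309312 and 20470065 counts, of which the 10 genes took between 0.286% and 0.322%. Mitochondrially encoded genes took 23.4% to 24.4% of the counts in α1r/rα2s/s hearts and 25.0% to 26.0% in α1s/sα2s/s hearts. Leaving them out with the globin genes gave a log2 fold change of -0.33 for Gja1 and 0.33 for Dsg2, as with all genes. Counts per gene do not show amino acid substitutions, so they do not check the labelled genotypes. In bulk tissue, fewer cells of a type and less RNA per cell cannot be told apart.

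Of the 10 genes, Dsg2 alone passed the edgeR quasi-likelihood test at a threshold of 0.05 on the adjusted p, and it rose in α1s/sα2s/s hearts. Over all genes tested, 1.44% passed, with 0.78% higher and 0.659% lower. Gja1 was lower in each α1s/sα2s/s heart than in any α1r/rα2s/s heart and had an adjusted p of 0.0814. DESeq2 called both of them, where 3.65% of its genes passed, with 2.23% higher and 1.42% lower. At an unadjusted p under 0.05 in edgeR Dsg2 and Gja1 were the 2 of the 10 genes that passed, against 14.5% of all genes. Genotypes did not overlap for 3 genes, with Dsg2 higher and Gja1 and Dsc2 lower, against 20% of all genes, 10% higher and 9.98% lower. The median log2 fold change was 0.01 over the 10 genes and -0.01 over all genes tested, with 5 genes above 0 and 5 below.

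Levels were compared between genes in TPM, which divides counts by gene length and scales each heart to the same total. Dsp was the most abundant at 357 ± 17.4 TPM (SD, n = 6), above every other gene in every heart. Gja1 followed at 116 ± 20.9 TPM, then Cdh2 at 81.0 ± 5.48, Jup at 71.9 ± 5.63 and Pkp2 at 67.2 ± 5.40 TPM (SD, n = 6). In this stretch each gene overlapped the next in its range over the 6 hearts, yet within hearts Gja1 was above Cdh2 and Cdh2 above Jup in 6 of 6, and Jup above Pkp2 in 5 of 6. Dsg2 at 32.1 ± 2.81 TPM and Dsc2 at 24.2 ± 2.47 TPM stood apart from their neighbours and from each other. Ctnna3 at 10.5 ± 0.865 TPM overlapped Gjc1 at 8.90 ± 1.004 TPM, and Gja5 was lowest at 2.96 ± 0.375 TPM (SD, n = 6).

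**Figure D1:**
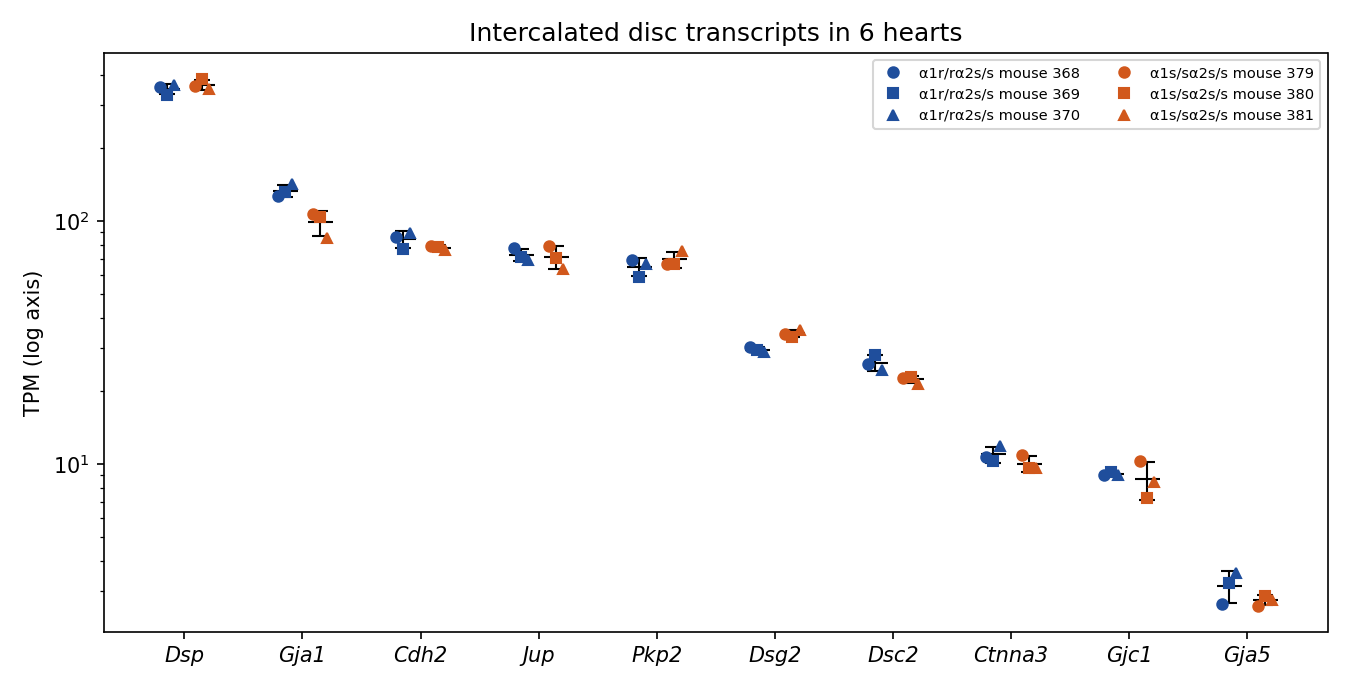
TPM of the 10 genes on a log axis, with 1 point per heart (blue for α1r/rα2s/s, orange for α1s/sα2s/s) and black bars for the mean and SD of 3 hearts. Dsp lies between 330 and 383 TPM in all hearts and Gja5 between 2.62 and 3.57 TPM.

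Gja1 encodes the main connexin of ventricular myocytes and was the connexin with the largest share of the transcripts. The gene spans 56377330 to 56402513 on the plus strand of chromosome 10 (GRCm38) and has 5 exon blocks over its 8 annotated transcripts. The 250 bases before its RefSeq start (GRCm38.p6, chr10:56377050-56377299, plus strand) are printed because Gja1, with Dsg2, had the largest log2 differences of the 10 genes, with the AP-1 letters TGANTCA in capitals.
Gja1 promoter: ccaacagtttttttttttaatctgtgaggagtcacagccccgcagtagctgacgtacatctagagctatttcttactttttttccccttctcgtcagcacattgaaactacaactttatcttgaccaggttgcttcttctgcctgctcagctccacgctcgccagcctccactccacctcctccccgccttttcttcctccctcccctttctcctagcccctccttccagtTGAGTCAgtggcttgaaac
The AP-1 letters were present in 6.7% of the 32851 promoters of this length in the RefSeq table, read on both strands. The GATA letters AGATAA were also in the Gja1 stretch and in 10% of promoters. The GC box letters GGGCGG were in the stretches of Gja5, Ctnna3, Dsp and Jup and in 32.7% of promoters, and the T-box letters AGGTGTGA in none of the genes found and in 1.1% of promoters. The RefSeq table matched 5 of the 10 genes, namely Gja1, Gja5, Ctnna3, Dsp and Jup. The matches of different motifs did not overlap, the motifs were chosen after results were seen, and a match describes the letters alone.

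Gja1 had 556, 564 and 678 CPM in α1r/rα2s/s hearts (mice 368, 369 and 370), where CPM are counts scaled to library size with TMM factors. It had 507, 488 and 431 CPM in α1s/sα2s/s hearts (mice 379, 380 and 381). Every α1s/sα2s/s heart was below every α1r/rα2s/s heart, with mouse 370 the highest and mouse 381 the lowest. The means were 599 ± 68.4 and 475 ± 39.3 CPM (SD, n = 3). The log2 fold change was -0.33 (standard error 0.09, 95% interval -0.52 to -0.14), which is 0.793 times the level of α1r/rα2s/s hearts. Its adjusted p was 0.0814 with edgeR and 0.00508 with DESeq2, and testing every gene with a count in edgeR gave 0.000838. Leaving out 1 heart at a time gave log2 fold changes from -0.38 to -0.23, the smallest of them without mouse 370, and adjusted p from 0.0924 to 0.261 in edgeR.

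Gjc1 and Gja5, the other connexins among the 10 genes, differed by less than their spread. Gjc1, a connexin of the nodal tissue and smooth muscle, had 19.4, 19.3 and 21.2 CPM in α1r/rα2s/s hearts and 23.8, 16.7 and 20.7 CPM in α1s/sα2s/s hearts. The genotypes overlapped, since α1s/sα2s/s mice 379 and 380 held the highest and the lowest value. On the log2 scale the fold change was 0.03 (95% interval -0.23 to 0.29, adjusted p = 0.937 in edgeR). Gja5, a connexin of atria, conduction fibres and arterial endothelium, had 6.54, 7.79 and 9.55 CPM in α1r/rα2s/s hearts and 6.95, 7.58 and 7.83 CPM in α1s/sα2s/s hearts. All α1s/sα2s/s values lay within the range of the α1r/rα2s/s hearts. Its log2 fold change was -0.09 (95% interval -0.46 to 0.27, adjusted p = 0.852 in edgeR), and it had the largest standard error of the 10 genes, 0.17, with 137 to 190 counts per heart. Gja5 shares its locus with Gpr89 on the opposite strand, which had 287 to 385 counts, and the strand setting of the counting is not given in the sources used here.

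Gja1 made up most of the length-scaled transcripts of these 3 connexins in every heart. Its share was 91.5%, 91.3% and 91.8% in α1r/rα2s/s hearts and 89.2%, 91.1% and 88.4% in α1s/sα2s/s hearts. The genotypes did not overlap, although mouse 380 lay close to the α1r/rα2s/s hearts. The mean share was 91.6% ± 0.249 and 89.6% ± 1.36 (SD, n = 3). A two-sided exact permutation test gave p = 0.1, which is the lowest value open to 3 hearts against 3, and 0.35 after adjustment over the 7 shares computed. The summed level of these 3 connexins was 146 ± 8.33 TPM in α1r/rα2s/s hearts and 110 ± 12.1 TPM in α1s/sα2s/s hearts (SD, n = 3; exact permutation test, two-sided p = 0.1). Gja3 and Gja4, with means of 12.4 and 10.4 TPM over all hearts, were outside this sum and the shares. Most of this sum was Gja1, with means of 133 and 98.8 TPM, beside 599 and 475 CPM with TMM factors.

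The adherens junction genes did not pass the test. Cdh2 encodes N-cadherin, the classical cadherin of the disc. It had 299, 259 and 336 CPM in α1r/rα2s/s hearts and 295, 289 and 302 CPM in α1s/sα2s/s hearts. The α1s/sα2s/s hearts lay within the range of the others and were closer together. A log2 fold change of -0.01 was fitted (95% interval -0.20 to 0.17, adjusted p = 0.963 in edgeR). Ctnna3 encodes αT-catenin, an α-catenin of the heart that links the cadherin complex to actin and binds plakophilin-2. It had 33.2, 31.1 and 40.1 CPM in α1r/rα2s/s hearts and 36.4, 31.9 and 34.3 CPM in α1s/sα2s/s hearts, again within the range of the other genotype. The fitted log2 fold change was -0.03 (95% interval -0.24 to 0.19, adjusted p = 0.94 in edgeR). Lrrtm3 and Gm10118 lie on the opposite strand of this locus, with at most 29 and 30 counts per heart. Per length, Ctnna3 made up 3.27% ± 0.248 of the α-catenin transcripts of Ctnna1 and Ctnna3 in α1r/rα2s/s hearts and 3.18% ± 0.217 in α1s/sα2s/s hearts (SD, n = 3; exact permutation test, two-sided p = 0.7).

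Of the desmosomal cadherins, Dsg2 rose and Dsc2 did not pass the test. Dsg2, the desmoglein of the myocyte, lies on chromosome 18 from 20558074 to 20604521 on the plus strand. It had 108, 102 and 112 CPM in α1r/rα2s/s hearts and 131, 127 and 145 CPM in α1s/sα2s/s hearts. Each α1s/sα2s/s heart was above each α1r/rα2s/s heart, and mouse 381 was the highest. The means were 107 ± 5.12 and 134 ± 9.55 CPM (SD, n = 3). The log2 fold change was 0.33 (standard error 0.07, 95% interval 0.17 to 0.49, adjusted p = 0.0391 in edgeR), a rise of 25.6%. The adjusted p was 0.0021 in DESeq2. With any 1 of the 6 hearts left out the log2 fold change was from 0.27 to 0.37. The adjusted p was from 0.053 to 0.144 in edgeR, so that Dsg2 passed in no such fit. Those fits called 80 to 158 genes over the whole heart transcriptome, against 214 with all 6 hearts. An antisense gene at the locus, Gm16090, had 1 to 9 counts per heart.

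Dsc2, the desmocollin of the myocyte and the partner of Dsg2 in the adhesive contact, had slightly lower values in α1s/sα2s/s hearts. It had 58.6, 62.0 and 60.1 CPM in α1r/rα2s/s hearts and 55.1, 55.2 and 55.7 CPM in α1s/sα2s/s hearts. The genotypes did not overlap, with the α1s/sα2s/s hearts the lower. Its log2 fold change was -0.12 (95% interval -0.27 to 0.03, adjusted p = 0.455 in edgeR). Per length, Dsg2 made up 54.0%, 51.1% and 54.3% of the transcripts of this pair in α1r/rα2s/s hearts and 60.3%, 59.4% and 62.4% in α1s/sα2s/s hearts. The mean share was 53.1% ± 1.74 and 60.7% ± 1.55 (SD, n = 3), with no heart of one genotype within the range of the other. The exact two-sided permutation p was again the lowest possible, 0.1, and 0.35 after adjustment over the 7 shares computed.

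**Figure D2:**
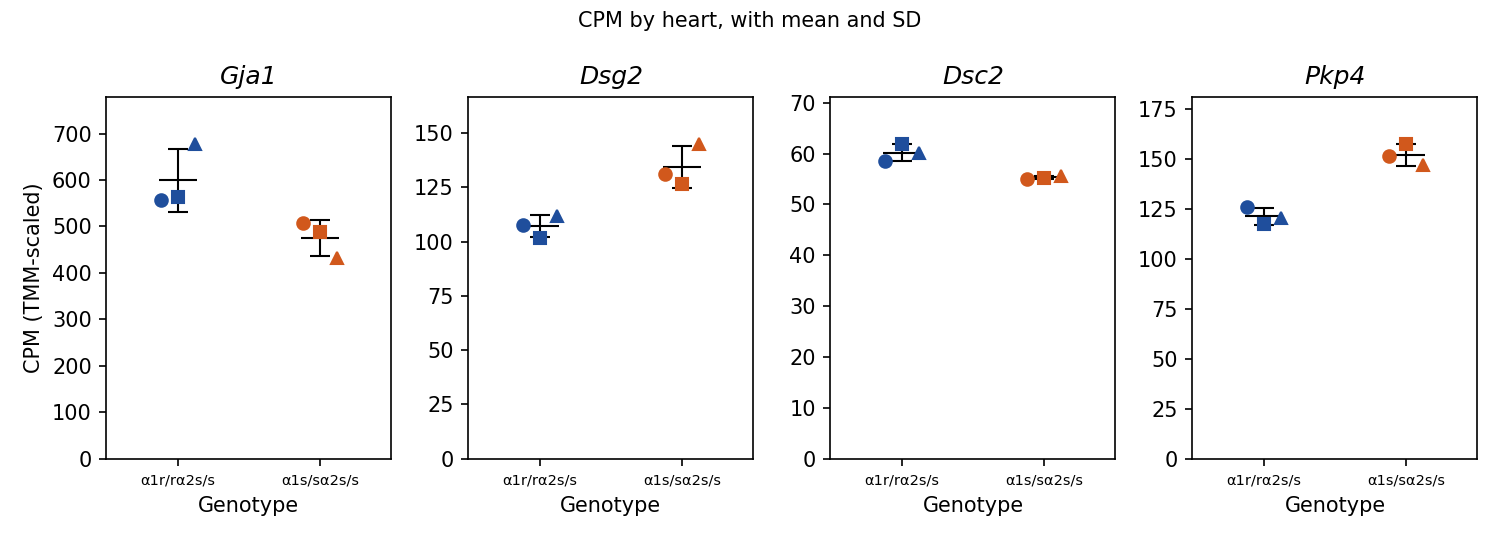
TMM-scaled CPM of Gja1, Dsg2, Dsc2 and the plakophilin-related gene Pkp4, with 1 point per heart and bars for the mean and SD of 3 hearts of each genotype. In these 4 panels no heart of one genotype reaches the other, with Gja1 and Dsc2 lower and Dsg2 and Pkp4 higher in α1s/sα2s/s hearts.

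The plaque genes of the desmosome had higher mean CPM in α1s/sα2s/s hearts and none passed the test. In TPM the mean of Jup was the lower in these hearts, at 71.3 against 72.5. Dsp, which encodes desmoplakin, the link to desmin filaments, had 1473, 1327 and 1635 CPM in α1r/rα2s/s hearts and 1606, 1695 and 1658 CPM in α1s/sα2s/s hearts. The overlap came from mouse 370, which was above mouse 379. The log2 fold change of Dsp was 0.16 (95% interval -0.01 to 0.33, adjusted p = 0.382 in edgeR). Pkp2 encodes plakophilin-2, an armadillo protein of the plaque. It had 159, 131 and 166 CPM in α1r/rα2s/s hearts and 165, 163 and 199 CPM in α1s/sα2s/s hearts. Mouse 369 was the lowest and mouse 381 the highest, while the other 4 hearts lay close together. That of Pkp2 was 0.21 (95% interval -0.0012 to 0.41, adjusted p = 0.349 in edgeR). Jup encodes plakoglobin, which binds both desmosomal and classical cadherins. It had 213, 190 and 207 CPM in α1r/rα2s/s hearts and 235, 209 and 202 CPM in α1s/sα2s/s hearts, which overlapped. For Jup the log2 fold change was 0.08 (95% interval -0.08 to 0.24, adjusted p = 0.677 in edgeR). Jup made up 31.2% ± 0.408 of the length-scaled transcripts of Jup and Ctnnb1 (β-catenin, its close relative) in α1r/rα2s/s hearts and 32.9% ± 2.53 in α1s/sα2s/s hearts (SD, n = 3; exact permutation test, two-sided p = 0.4). The 5 desmosomal genes together had 543 ± 22.0 and 562 ± 15.3 TPM (SD, n = 3; exact permutation test, two-sided p = 0.4). TPM does not use the TMM factors, and the contrast between genotypes depended on the scale. Dsp, the largest part of this sum, had means of 350 and 364 TPM, beside 1478 and 1653 CPM. The sum of the 5 genes in CPM was not tested.

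Hearts of one genotype differed in a way that several of the genes shared. Mouse 369 had the lowest value of all hearts for 6 of the 10 genes, and mouse 370 the highest for 4. Mouse 370 was 0.35 above the mean of the 6 hearts for Gja1 on the log2 scale, 0.32 for Gja5, 0.22 for Ctnna3 and 0.19 for Cdh2. Without mouse 370 the log2 fold changes of Gja5, Cdh2 and Ctnna3 were 0.061, 0.088 and 0.094, with adjusted p from 0.652 to 0.915 in edgeR. Cdh2 and Ctnna3 were also above 0 without mouse 380, at 0.0078 and 0.027. The spread within α1r/rα2s/s hearts was between 2.81% of the mean for Dsc2 and 19.0% for Gja5. In α1s/sα2s/s hearts it was between 0.603% for Dsc2 and 17.5% for Gjc1.

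**Figure D3:**
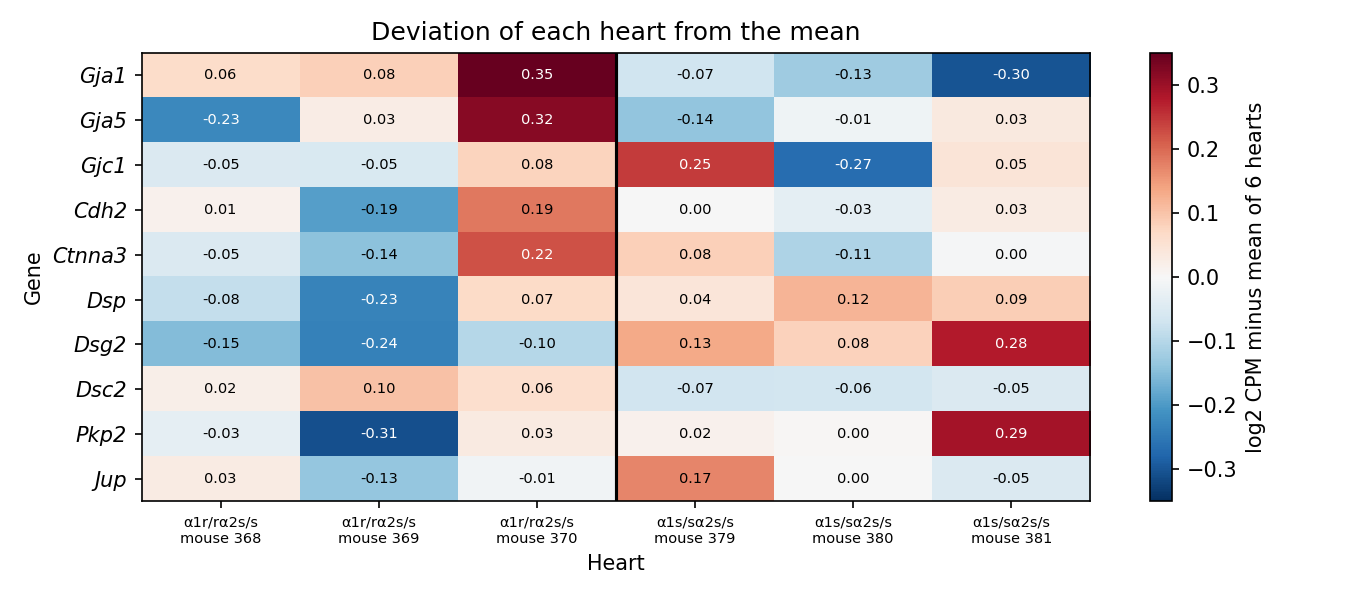
Log2 CPM of each gene in each heart minus the mean of the 6 hearts, as colour and number. Gja1 is above 0 in the 3 α1r/rα2s/s hearts and below it in the 3 α1s/sα2s/s hearts, Dsg2 shows the reverse, and mouse 369 has the lowest value in 6 rows.

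Other genes of the disc were taken from lists written out by junction type. Among 14 further desmosomal and plakin genes, 5 were expressed enough to be tested, and 1 of them, Pkp4, passed. Over all genes tested, 1.44% passed in edgeR. Pkp4 is an armadillo protein related to plakophilins that is found at both adherens junctions and desmosomes. It had 126, 118 and 120 CPM in α1r/rα2s/s hearts and 151, 158 and 147 CPM in α1s/sα2s/s hearts, without overlap. The fold change on the log2 scale was 0.33, with a standard error of 0.07 and an adjusted p of 0.0283 in edgeR. No gene of this list passed in 4 of the 6 fits that left out 1 heart, those without mouse 368, 369, 379 or 380. Over all genes tested, these 4 fits called 80 to 135, against 214 with all hearts. Pkp2 made up 57.1% ± 2.63 of the length-scaled transcripts of Pkp2 and Pkp4 in α1r/rα2s/s hearts and 55.1% ± 3.55 in α1s/sα2s/s hearts (SD, n = 3; exact permutation test, two-sided p = 0.4). Des, the gene of desmin to which desmoplakin binds, was named after its values were seen. It had 1285, 1206 and 1468 CPM in α1r/rα2s/s hearts and 1529, 1599 and 1771 CPM in α1s/sα2s/s hearts, with an adjusted p of 0.1 in edgeR and 0.00418 in DESeq2. The desmogleins and desmocollins of stratified epithelia, among them Dsg1a, Dsg3 and Dsc1, had at most 5 counts in any heart.

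Of 20 further connexins and pannexins, 5 were tested and none passed in edgeR, adjusted or at an unadjusted p under 0.05. DESeq2 gave an adjusted p for 2 of them, Gja3 and Gja4, and called neither. The smallest p-values were those of Gjc3 (log2 fold change 1.03, adjusted p = 0.374 in edgeR), which had 15 counts at most, and Gja3 (0.16, adjusted p = 0.585 in edgeR). Gja3 had 15.8 CPM on average in α1r/rα2s/s hearts and 17.7 CPM in α1s/sα2s/s hearts. None of the 16 further adherens junction genes passed in edgeR. At an unadjusted p under 0.05, 3 were higher (Xirp2, Nrap and Nectin2) and 1 lower (Vcl). Over all genes tested, 14.5% passed that threshold in either direction. Nrap and Nectin2 are named after their values were seen. Xirp2, which encodes an actin-binding repeat protein of the disc, had the smallest p, with 658 CPM on average in α1r/rα2s/s hearts and 783 CPM in α1s/sα2s/s hearts (log2 fold change 0.25, adjusted p = 0.117 in edgeR and 0.0058 in DESeq2). Vcl, which encodes vinculin, was next at 95.9 and 81.5 CPM (log2 fold change -0.23, adjusted p = 0.184 in edgeR).

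Of 16 genes for channels and scaffolds placed at the disc, none passed in edgeR. At an unadjusted p under 0.05 none was higher and 3 were lower, where 14.5% of all genes passed in either direction. Without overlap 2 were higher and 4 lower, against 10% and 9.98% of all genes. Ank3, which encodes ankyrin-G, a membrane scaffold of the disc, had 76.4, 72.3 and 83.0 CPM in α1r/rα2s/s hearts and 67.9, 65.1 and 69.6 CPM in α1s/sα2s/s hearts, without overlap. The difference was -0.19 on the log2 scale (adjusted p = 0.245 in edgeR). Medians over the tested genes were 0.05 for 5 connexins and pannexins and 0.31 for 5 desmosomal and plakin genes. In both lists 3 genes were above 0 and 2 below. The medians were 0.05 for 16 adherens junction genes (10 above 0) and 0.03 for 16 channels and scaffolds (9 above 0). For all 14866 genes the median was -0.01, with 7202 above 0.

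**Figure D4:**
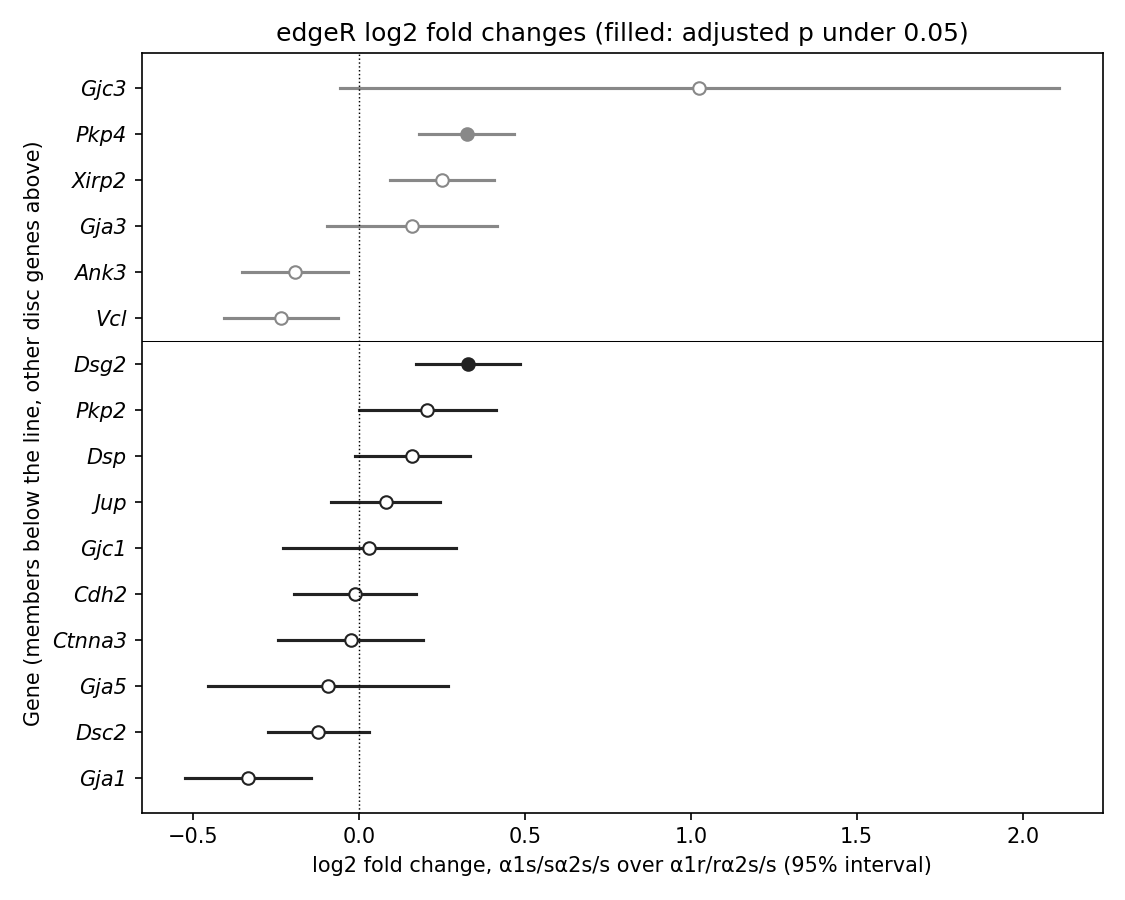
Log2 fold changes of α1s/sα2s/s over α1r/rα2s/s hearts with 95% intervals from edgeR, for the 10 genes in black below the line and 6 other disc genes in grey above it. Filled points have an adjusted p under 0.05, which Dsg2 and Pkp4 alone reach, and the intervals of 8 of the 10 genes cross 0.

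Cell type markers were compared by list. No marker passed in edgeR, with 4 higher and 16 lower at an unadjusted p under 0.05. Of the 14866 genes tested, 1069 were higher and 1081 lower at that threshold. Lower were 4 of 8 fibroblast, 3 of 7 macrophage and 3 of 8 atrial markers tested. So were 2 of 8 endothelial, 2 of 6 smooth muscle, 1 of 9 conduction system and 1 of 8 arterial markers. Higher was 1 each of the 8 atrial, 9 conduction system, 8 arterial and 3 adipocyte markers tested. DESeq2 called 2.23% of its genes higher and 1.42% lower, Gja1 among the latter. Of the markers it called 6, all lower. By list these were 2 of 7 macrophage markers with an adjusted p, and 1 each of 8 fibroblast, 7 atrial, 4 smooth muscle and 8 arterial ones. They were Mrc1 (adjusted p = 0.00657) and C1qa (0.0395) of macrophages, Col1a1 (0.012) of fibroblasts, Myl7 (0.0186) of atrial myocytes, Acta2 (0.0339) of smooth muscle and Cxcl12 (0.0388) of arterial endothelium, of which Mrc1 and Cxcl12 alone fall under the rule for named genes and the rest were named after their values were seen. The 10 myocyte markers, led by Myh6 and Tnnt2, summed to 54904 to 66464 CPM in α1r/rα2s/s hearts and 60164 to 65747 CPM in α1s/sα2s/s hearts. Fibroblast markers, led by Dcn and Col3a1, summed to 1122 to 1317 CPM and 998 to 1152 CPM, with 3 of 8 lower without overlap. Among all genes tested, 9.98% were lower and 10% higher without overlap. Fibroblasts also use Gja1. Atrial markers, led by Nppa and Myl4, summed to 210 to 310 CPM and 199 to 220 CPM, with 1 of 8 lower and 1 higher without overlap. Conduction system markers, led by Irx3 and Etv1, summed to 70.0 to 82.2 CPM and 75.4 to 82.6 CPM. Arterial endothelial markers, led by Cxcl12 and Efnb2, summed to 317 to 376 CPM and 269 to 333 CPM. Endothelial markers, led by Kdr and Cdh5, summed to 987 to 1157 CPM and 853 to 1050 CPM. Smooth muscle markers, led by Smtn and Myh11, summed to 253 to 316 CPM and 251 to 290 CPM. Macrophage markers, led by Csf1r and Mrc1, summed to 220 to 336 CPM and 172 to 229 CPM. Mesothelial and epithelial markers, led by Wt1 and Krt18, summed to 6.21 to 11.0 CPM and 6.42 to 9.33 CPM, and adipocyte markers, led by Cidec and Adipoq, to 1.06 to 1.96 CPM and 1.87 to 4.27 CPM. The median log2 fold change was -0.43 for macrophage markers, with 7 of 7 below 0, -0.42 for atrial, -0.21 for smooth muscle (5 of 6 below 0) and -0.20 for fibroblast markers. It was 0.93 for the 3 adipocyte markers tested, and 2 of 8 endothelial markers were lower without overlap. Of the markers listed, Ucp1 alone had no count in any heart. All these sums overlapped between the genotypes, and their part in the levels of Gja1, Gja5 and Dsg2 was not tested.

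**Figure D5:**
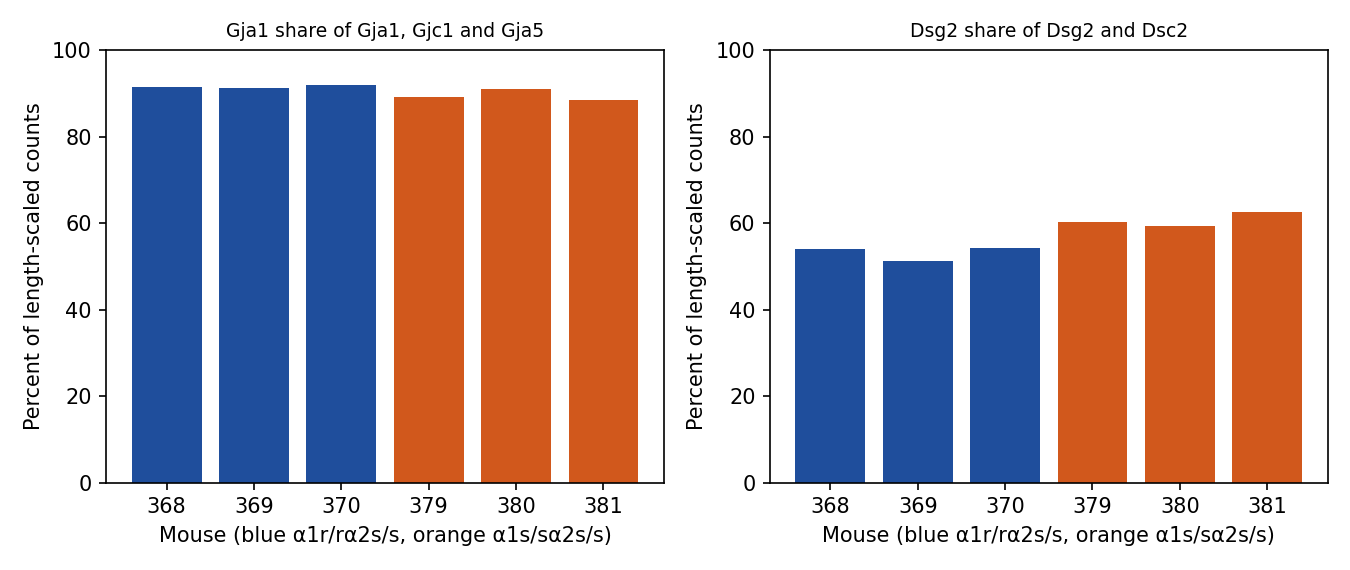
Gja1 as a percentage of the length-scaled counts of Gja1, Gjc1 and Gja5 (left) and Dsg2 as a percentage of Dsg2 and Dsc2 (right), with 1 bar per mouse in blue for α1r/rα2s/s and orange for α1s/sα2s/s. The Dsg2 share is 51.1% to 54.3% in blue and 59.4% to 62.4% in orange.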

How the data were processed

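RNA-seq of 6 whole hearts was analysed, 3 of each genotype, grouped by the labelled genotype. A sequencing company mapped and counted the reads. The submitters' processing notes name fastp, STAR, featureCounts and mm10, with versions and strand setting not given in the sources used here. The authors deposited raw counts per gene with a gene length. Their table of a DESeq2 comparison, with fold changes and p-values, was not used here. The 10 genes have the same coordinates in GENCODE M21.

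Counts were tested in R 4.3.3 with edgeR 4.0.16, using TMM normalization, filterByExpr (minimum count 10, minimum total 15), the quasi-likelihood test and Benjamini-Hochberg adjustment over 14866 genes, with a threshold of 0.05. The standard error was the size of the log2 fold change divided by the root of F. TPM used the deposited gene length. Shares of length-scaled counts were compared by exact two-sided permutation tests over hearts. Alternatives were DESeq2 1.42.0, RLE and upper-quartile factors, other count filters, a robust prior, leaving out mitochondrially encoded and globin genes, and leaving out each heart. Scripts were tested on simulated data. Between hearts of the same genotype the chi-square of the counts was 6.85 to 13.1 per gene, so none was a repeat of another library of its genotype. Pairs across genotypes were not compared in this way. The 10 genes and the lists were chosen with earlier results of these data known. The genes named were the 10, the called genes of each disc list or else the pair with the smallest p, and the marker genes with the highest CPM. Some genes that this rule names are not reported here.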

Additional observations from a re-analysis of the deposited data

How the results depend on the processing

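Dsg2 kept its direction in all 13 alternatives and an adjusted p under 0.05 in the 7 settings with all hearts (0.0021 to 0.0483), and Gja1 kept its direction in all 13 and passed in 2 of the 7, DESeq2 and no filter. No other gene of the 10 passed in any alternative. With each heart left out, the number of the 10 genes called higher was 0 in all 6 fits against 1, and the number without overlap and higher was 1 to 3. The further desmosomal and plakin genes called higher were 0 to 1, with 0 in 4 of the 6 fits. Over all genes tested, these fits called 80 (without mouse 368) to 158 (without mouse 370), against 214 with all hearts. DESeq2 and no filter each called 1 of the 10 genes lower against 0, and 2 further desmosomal and plakin genes higher against 1. DESeq2 called 1 further adherens junction gene higher and no filter 2, against 0, and both called 1 channel or scaffold gene lower, against 0. The cause was not tested. Leaving out each heart turned the sign of Gja5 (-0.21 to 0.061), Gjc1 (-0.092 to 0.16), Cdh2 (-0.10 to 0.088) and Ctnna3 (-0.097 to 0.094), none of them called. Other scalings moved the median of all genes by 0.0034 (RLE) and -0.013 (upper-quartile) on the log2 scale. No paired analysis was made because each heart came from a separate mouse and the labels link no mouse to one of the other genotype. At 3 hearts per genotype the 95% intervals of the 8 genes whose interval crossed 0 reached from 0.729 to 1.33 times the level of α1r/rα2s/s hearts.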
